A study of Mus musculus with 5 samples.

Results

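The elements described here are the endogenous retroviruses of the ERVK family other than the intracisternal A particles (IAP), as measured in RNA of mouse embryonic stem cells. They were taken from the repeat table as every row of family ERVK whose name does not begin with IAP, which gave 134 of the 1221 repeat rows. The ERVK family as a whole had 150 rows, of which 16 were IAP. Of the 134 elements, 109 were long terminal repeats (LTRs) and 25 were internal regions, and 128 had enough counts to be tested. The 6 others were LTRs with at most 6 counts in any library. RLTR3_Mm had 3 and 5 counts in shTrim28, 5 and 6 in the libraries labelled shWtx and 0 in shGFP. RLTR43B, RMER3D1 and RMER3D2 had at most 2 counts in a library, and RMER3D3 and RMER3D4 had 0 in all 5 libraries.

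The cells were ES-D3, an established mouse embryonic stem cell line grown on irradiated feeder cells with leukemia inhibitory factor, and total RNA was read by Helicos sequencing, which reads single molecules without amplification. Each library came from cells infected with a lentivirus carrying 1 short hairpin and selected with puromycin: 2 libraries targeted Trim28 (shTrim28.2065 and shTrim28.2856), 2 were labelled as targeting Wtx (shWtx.2460 and shWtx.2461) and 1 carried a hairpin to GFP, which the labels give as the control. All 5 libraries therefore share the cell line, the infection and the selection, and feeder cells were reduced by replating for 30 minutes before extraction. Whether the cultures of a target were separate beyond their hairpins is not in the labels. Each p-value thus sets a difference between groups against the spread between the hairpins of a target, which may be technical in part. The single control adds no spread of its own.

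ERVK elements are proviruses and solitary LTRs related to betaretroviruses. A provirus holds an internal region, with the genes or their remains, between a pair of LTRs, which carry the promoter and the end of the transcript. In mouse embryonic stem cells, KRAB zinc finger proteins bind many of these elements and recruit Trim28 (KAP1), a corepressor that brings the histone H3K9 methyltransferase Setdb1 and heterochromatin protein 1. Wtx (Amer1) is a component of the complex that degrades beta-catenin.

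The hairpin target sequences are shown because each library carries 1 of them and the groups rest on them. They are written 5′ to 3′ in the sense of the messenger RNA, and capitals mark the 20 bases that the pair of Wtx hairpins share.
shTrim28.2065: ccaccagtcttcaaggtcttt
shTrim28.2856: ccgcatgttcaaacagttcaa
shWtx.2460: gCCAGACATGCAAGAAGCAAA
shWtx.2461: CCAGACATGCAAGAAGCAAAt
By a match to GENCODE transcripts on build GRCm38, the shTrim28.2065 target lies in coding sequence of exon 12 of 17 of Trim28, on the plus strand at chr7:13029440-13029460. That of shTrim28.2856 lies in coding sequence of exon 16 of the same gene, at chr7:13030559-13030579. That of shWtx.2460 lies in coding sequence of Amer1, in exon 2 of 2 and on the minus strand, at chrX:95426292-95426312, and that of shWtx.2461 at chrX:95426291-95426311. The Trim28 hairpins are at separate sites, while both Wtx hairpins cover 1 site.

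Trim28 had 65.3 and 48.3 CPM (counts scaled to the TMM library size of the gene table) in shTrim28, 400 and 397 in the libraries labelled shWtx, and 783 in shGFP. The Wtx transcript, listed under its older symbol Fam123b, had 18.1 and 30.3 CPM in shTrim28, 26.3 and 16.5 in the libraries labelled shWtx, and 14.3 in shGFP, from 5 to 54 counts, so no lower level was detected where the label says it was targeted. Gene totals ran from 280614 to 1901563 estimated counts. All 7 stem cell markers had counts in every library and summed to 1292 and 1326 CPM in shTrim28, 2422 and 2624 in the libraries labelled shWtx and 5141 in shGFP. All 10 fibroblast markers, which feeder cells would bring, summed to 3320 and 3738 CPM in shTrim28, 1711 and 1955 in the libraries labelled shWtx and 1565 in shGFP.

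Relative to gene reads, repeats as a whole differed between the libraries, so each element was read on a pair of scales. The first scale was CPM of gene reads. The second was reads per 1000 reads of DNA transposons, an old class of repeats that do not move through RNA. The 133 DNA transposon rows tested were not themselves centred at 0 on it. Against shGFP their median log2 fold change was 0.25 in shTrim28 and 0.52 in the libraries labelled shWtx. DNA transposon reads stood at 14.5 and 12.1 per 1000 gene reads in shTrim28, 26.4 and 21.4 in the libraries labelled shWtx and 6.12 in shGFP. Genes of the chemoreceptors (odorant, pheromone and taste receptors) were listed as a measure of genomic or unspecific reads. They stood in the same order, at 2358 and 1614 CPM in shTrim28, 4659 and 3981 in the libraries labelled shWtx and 349 in shGFP. Ribosomal RNA took 38.2% and 51.2% of the reads in the repeat table in shTrim28, 21.9% and 22.3% in the libraries labelled shWtx and 42.0% in shGFP. The part that these reads or the marker levels have in the results on CPM was not tested. In such bulk RNA, more cells that transcribe an element, more of its RNA per cell and more genomic or unspecific reads cannot be told apart. Levels are counts per element and not per length, so they are compared between libraries and, as read shares only, between elements.

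The non-IAP ERVK elements together made up 43603 and 32112 CPM in shTrim28, 80566 and 68820 in the libraries labelled shWtx, and 19450 in shGFP. All 4 hairpin libraries were above the control, and those labelled shWtx stood highest. Per 1000 DNA transposon reads the sums were 3000 and 2645 in shTrim28, 3048 and 3216 in the libraries labelled shWtx and 3180 in shGFP. On this scale the sum in the control lay within the range of the hairpin libraries, while groups of elements within the sum moved apart. RLTR10 with MMERVK10C and RLTR13 were above the control in all 4 hairpin libraries, and MusD with ETn was below it in all 4. IAP, which is not part of the sum, was also above the control in all 4.

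**Figure D1:**
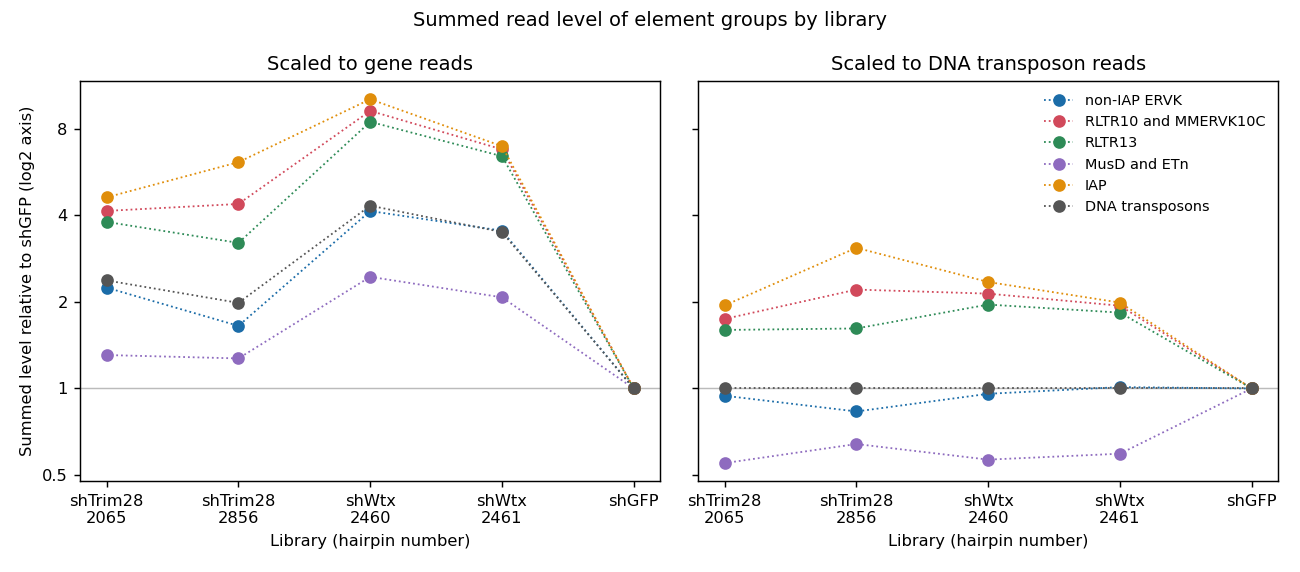
Summed reads of each element group in each library divided by the same sum in shGFP (log2 axis), scaled to gene reads on the left and to DNA transposon reads on the right; each point is 1 library and the dotted lines only join points of a group. On the left all groups lie above 1 in the 4 hairpin libraries; on the right all non-IAP ERVK elements lie between 0.832 and 1.01, and the MusD and ETn elements between 0.550 and 0.641.

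The first comparison asked which elements differ after knockdown of Trim28. On the CPM scale, 42 of the 128 elements tested were higher in shTrim28 than in shGFP (edgeR quasi-likelihood test, adjusted p under 0.05), against 20.9% of all 900 repeat rows tested. In the other direction 0 were lower, against 0.111%. At an unadjusted p under 0.05 there were 70 higher and 0 lower, beside 393 and 4 of all rows. DESeq2 called 56 and 0, beside 236 and 2 of all rows. The median log2 fold change of the elements was 1.28, beside 1.15 for all repeat rows. With DNA transposon reads as the scale, 1 element was higher, against 0.444% of all rows, and 1 was lower, against 1.22%. These were RLTR10 and RLTRETN_Mm. At an unadjusted p under 0.05, 15 elements were higher and 14 lower, beside 66 and 99 of all rows. The median was then 0.14, beside 0.03 for all rows and 0.25 for the DNA transposon rows. The calls of shTrim28 against the control on both scales draw on the spread of the shWtx pair. The hairpins of that pair share 20 bases at 1 site. With only shTrim28 and shGFP fitted, edgeR called 0 elements higher in CPM (35 at an unadjusted p under 0.05), beside 0 of all rows. DESeq2 was run only with all 5 libraries. Without shWtx.2460 or shWtx.2461 the CPM median of the elements was 1.29 both times, beside 1.16 for all rows. Without shTrim28.2856 it was 1.52, beside 1.40 for all rows.

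The second comparison set the libraries labelled shWtx against the same control. On the CPM scale, 120 of 128 elements were higher, against 82.2% of all rows, and 0 were lower, against 0.333%. At an unadjusted p under 0.05 there were 121 and 0, beside 749 and 4 of all rows. DESeq2 called 113 and 0, beside 600 and 2 of all rows. The median log2 fold change was 2.25, beside 2.21 for all rows. With DNA transposon reads as the scale, 11 were higher, against 4.67% of all rows, and 3 were lower, against 7%. The median was 0.28, beside 0.23 for all rows and 0.52 for the DNA transposon rows. The 11 were RLTR10, RLTR10-int, RLTR10D, MMERVK10C-int, RLTR13A3, RLTR13D3, RLTR13B1, RLTR33, RMER13B, MERVK26-int and RMER19A. The 3 lower ones were RLTR20A1, RLTRETN_Mm and RLTR19-int. Without shWtx.2460 or shWtx.2461 none of these 14 calls on the DNA transposon scale was kept. The median of the elements was then 0.30 and 0.29, beside 0.23 and 0.21 for all rows. Without either shTrim28 library it was 0.29, beside 0.23 for all rows. DESeq2 called 5 elements higher and 4 lower on this scale, beside 32 and 60 of all rows. In CPM without shWtx.2460 the median was 2.09, beside 2.03 for all rows.

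The third comparison set the Trim28 hairpins against the libraries labelled shWtx. On the CPM scale, 0 elements were higher in shTrim28, against 1.33% of all rows, and 87 were lower, against 66%. The median was −1.05 for the elements and −1.05 for all rows. At an unadjusted p under 0.05, 0 elements were higher, beside 15 of all rows. DESeq2 called 0 higher and 73 lower, beside 8 and 325 of all rows. Without shTrim28.2856, shWtx.2460 or shWtx.2461, 0 were called lower (53, 8 and 35 at an unadjusted p under 0.05). The 8 with the largest differences, from −1.82 to −1.51, were RLTR43A, RMER13B, RLTR10A, RLTR10, RLTR13B3, RLTR44D, RLTR9B and MERVK26-int. Relative to DNA transposon reads, edgeR called 0 in either direction, against 0.889% of all rows higher and 0% lower. At an unadjusted p under 0.05, 3 were higher and 10 lower, beside 61 and 53 of all rows. DESeq2 called 0 and 0, beside 25 and 0 of all rows. The comparisons share libraries, the single control among them, so their calls are not independent of each other.

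**Figure D2:**
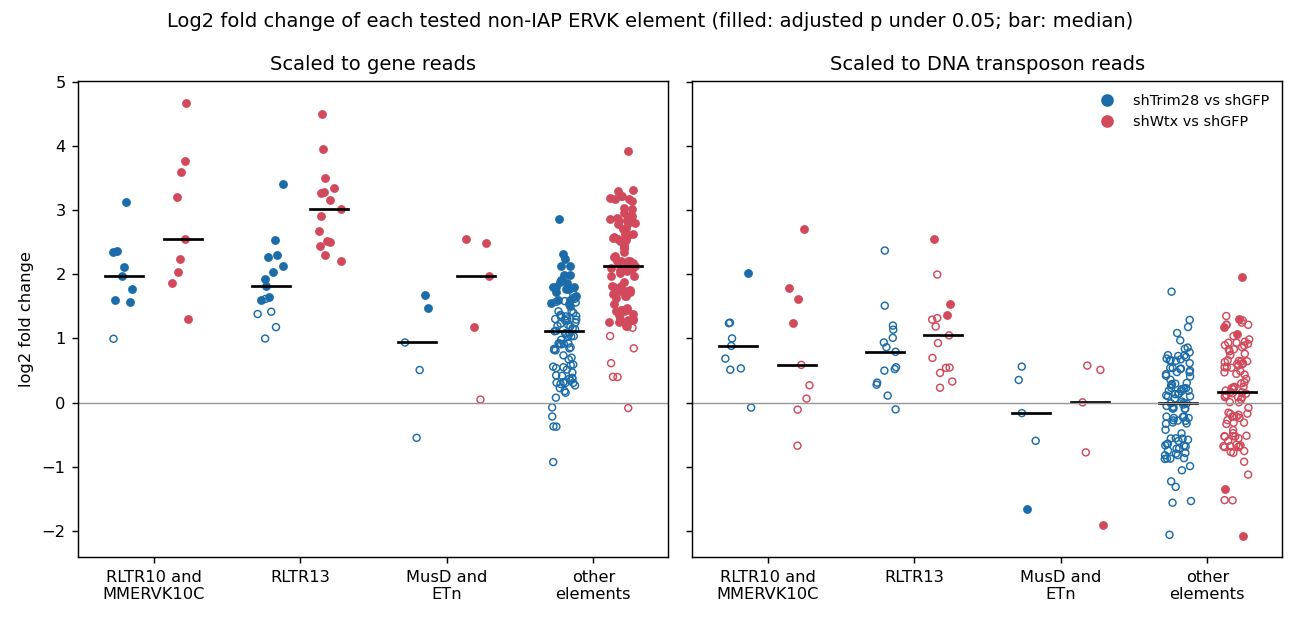
Log2 fold change of each tested element (1 point each) in shTrim28 against shGFP (blue, left of each pair) and in the libraries labelled shWtx against shGFP (red, right), by group of elements, relative to gene reads on the left and to DNA transposon reads on the right; filled points had an adjusted p under 0.05 and bars are medians. Relative to DNA transposon reads, 1 element was called higher in shTrim28 and 11 in the libraries labelled shWtx, and the median of the elements outside the 3 named groups was −0.01 and 0.17.

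MMERVK10C is a young mouse ERVK provirus, and RLTR10 names the LTRs of this group and their relatives. The 9 elements of the group took 6.28% and 9.02% of all non-IAP ERVK reads in shTrim28, 7.58% and 6.52% in the libraries labelled shWtx and 3.40% in shGFP, a share that no scaling between libraries enters. Per 1000 DNA transposon reads they summed to 188.5 and 238.6 in shTrim28, 230.9 and 209.6 in the libraries labelled shWtx and 108.1 in shGFP. The control was the lowest library in each case. In CPM, 8 of the 9 were higher in shTrim28, against 20.9% of all rows, and 9 of 9 in the libraries labelled shWtx, against 82.2%. Scaled to DNA transposon reads, 1 was higher in shTrim28, against 0.444%, and 4 in the libraries labelled shWtx, against 4.67%. The medians were 0.88 and 0.59, beside 0.25 and 0.52 for the DNA transposon rows.

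RLTR10, an LTR, was called higher in both comparisons with the control on both scales. It had 19.2 and 18.9 reads per 1000 DNA transposon reads in shTrim28, 31.4 and 29.9 in the libraries labelled shWtx and 4.69 in shGFP. The control value rests on 16 counts, beside 77 and 408 in shTrim28, and 600 with 232 in the libraries labelled shWtx. The 3 groups did not overlap, with the libraries labelled shWtx highest and the control lowest. On this scale its log2 fold change was 2.02 (SE 0.30, adjusted p = 0.0473, edgeR) in shTrim28 and, in the libraries labelled shWtx, 2.71 (SE 0.30, adjusted p = 0.00976). In CPM it was 3.13 (SE 0.71, adjusted p = 0.00129) and 4.67 (SE 0.75, adjusted p = 1.02e-07). The difference between shTrim28 and the libraries labelled shWtx was −1.54 relative to gene reads (SE 0.46, adjusted p = 0.00977) and −0.69 relative to DNA transposon reads (SE 0.19, adjusted p = 0.183). The calls of shTrim28 against the control draw on the spread of the shWtx pair: without shWtx.2460 or shWtx.2461 the fold relative to gene reads was 3.14 both times with adjusted p = 0.161 and 0.17, and relative to DNA transposon reads 2.02 with 0.28 and 0.288.

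MMERVK10C-int, the internal region of the provirus, had 65.7 and 87.8 reads per 1000 DNA transposon reads in shTrim28, 79.2 and 73.9 in the libraries labelled shWtx and 32.5 in shGFP. Every hairpin library was above the control, and the pairs of the 2 targets overlapped. The log2 fold change was 1.24 in both comparisons with the control on this scale, with an adjusted p of 0.104 (SE 0.28) in shTrim28 and 0.0444 (SE 0.28) in the libraries labelled shWtx, so the effects were alike in size and only 1 passed the threshold. The difference between the targets was 0.01 (SE 0.21, adjusted p = 0.988). In CPM the element had 954 and 1066 in shTrim28, 2093 and 1580 in the libraries labelled shWtx and 199 in shGFP, and both folds, 2.35 and 3.21, were called higher.

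RLTR10-int, the other internal region, had 31.5 and 29.4 reads per 1000 DNA transposon reads in shTrim28, 48.5 and 40.3 in the libraries labelled shWtx and 12.9 in shGFP. RLTR10D, an LTR, had 7.24 and 5.96 in shTrim28, 10.7 and 9.01 in the libraries labelled shWtx and 3.22 in shGFP. Both had the order of RLTR10, with no overlap between groups, and both were called higher on this scale in the libraries labelled shWtx (1.79, adjusted p = 0.0167, and 1.62, adjusted p = 0.0423) but not in shTrim28 (1.24, adjusted p = 0.104, and 1.00, adjusted p = 0.238). RLTR10A had 6.74 and 9.38 in shTrim28, 12.3 and 14.2 in the libraries labelled shWtx and 8.79 in shGFP, where the control lay between the shTrim28 libraries.

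The other LTRs of the group stood in another order. RLTR10C, the LTR named after MMERVK10C, had 31.7 and 50.2 reads per 1000 DNA transposon reads in shTrim28, 28.8 and 24.8 in the libraries labelled shWtx and 25.8 in shGFP. RLTR10B2 had 14.0 and 19.0 in shTrim28, 9.20 and 7.46 in the libraries labelled shWtx and 9.08 in shGFP. For both of these the shTrim28 libraries were the highest, shTrim28.2856 above shTrim28.2065, and the control lay inside the range of the libraries labelled shWtx. RLTR10B had 4.49 and 8.78 in shTrim28, 3.14 and 3.09 in the libraries labelled shWtx and 4.98 in shGFP, with shTrim28.2856 alone above the control. RLTR10E had 7.99 and 9.29 in shTrim28, 7.69 and 7.08 in the libraries labelled shWtx and 6.15 in shGFP. The differences between shTrim28 and the libraries labelled shWtx were 0.99 for RLTR10B2 (SE 0.25, adjusted p = 0.146), 1.21 for RLTR10B (SE 0.33, adjusted p = 0.183), 0.62 for RLTR10C (SE 0.27, adjusted p = 0.405) and 0.24 for RLTR10E (SE 0.21, adjusted p = 0.618). None of them passed the threshold, and relative to gene reads RLTR10C and RLTR10E turned to −0.27 and −0.64.

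**Figure D3:**
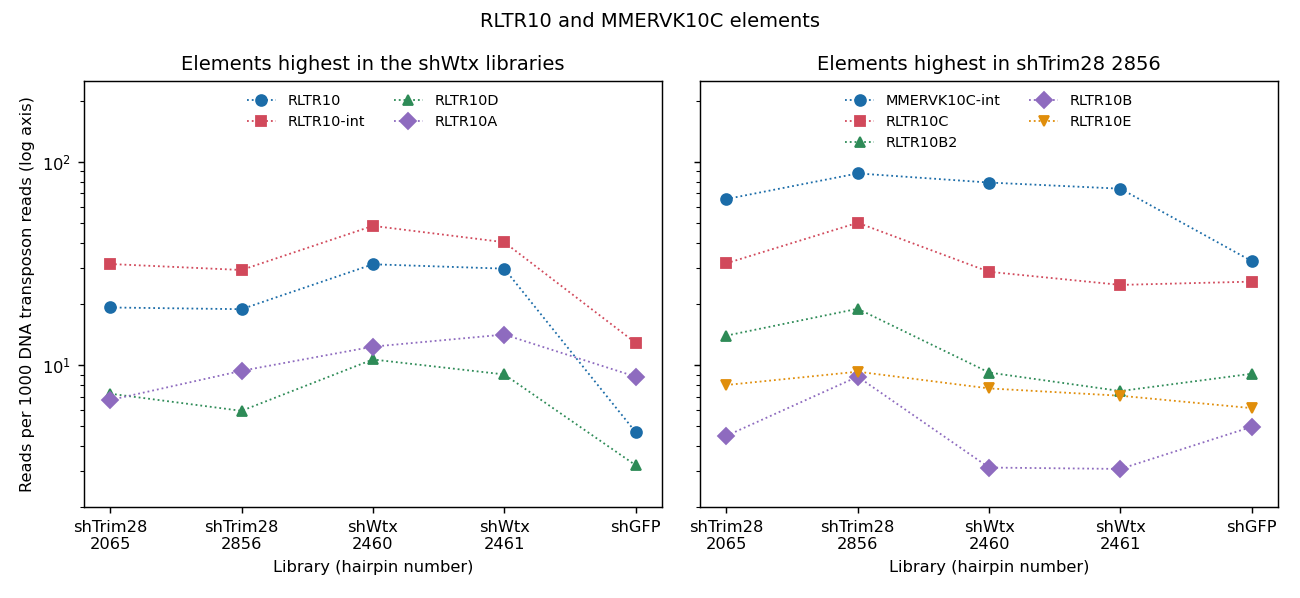
Reads per 1000 DNA transposon reads (log axis) of the 9 RLTR10 and MMERVK10C elements in each library; each point is 1 library and the dotted lines only join points of an element. RLTR10, RLTR10-int, RLTR10D and RLTR10A on the left are highest in the libraries labelled shWtx; the 5 on the right, among them MMERVK10C-int at 87.8 and RLTR10C at 50.2, are highest in shTrim28.2856.

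The contrast within the group was also read as a ratio of counts inside each library, which no scaling enters; these pairs of elements were picked after their values were seen. RLTR10 had 1.38 (95% interval 0.962 to 1.98) and 0.995 (0.866 to 1.14) counts per count of RLTR10B2 in shTrim28, in the libraries labelled shWtx 3.41 (2.88 to 4.06) and 4 (2.99 to 5.43), and 0.516 (0.264 to 0.973) in shGFP. The point values of the groups did not overlap, but the interval of shGFP, from 16 and 31 counts, overlapped those of both shTrim28 libraries. The libraries labelled shWtx held the most RLTR10 for their RLTR10B2. Against RLTR10C the ratio was 0.606 and 0.376 in shTrim28, 1.09 and 1.20 in the libraries labelled shWtx and 0.182 in shGFP. The intervals cover counting error only.

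ETn elements are transposons without genes of their own that MusD proviruses, their coding relatives, supply with proteins. No row carries the name MusD, so the group consists of 4 internal regions and RLTRETN_Mm, the LTR of ETn elements. Its 5 elements took 9.55% and 12.6% of non-IAP ERVK reads in shTrim28, 9.66% and 9.60% in the libraries labelled shWtx and 16.4% in shGFP, so that, in contrast to RLTR10 with MMERVK10C, the control held the largest share. In CPM the sum was 4162 and 4050 in shTrim28, 7786 and 6608 in the libraries labelled shWtx and 3184 in shGFP. Per 1000 DNA transposon reads it was 286.4 and 333.7 in shTrim28, 294.5 and 308.8 in the libraries labelled shWtx and 520.6 in shGFP.

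The LTR carried most of this difference. RLTRETN_Mm had 1096 and 1182 CPM in shTrim28, 1771 and 1674 in the libraries labelled shWtx and 1669 in shGFP, where both targets lay close to or below the control (log2 fold changes −0.55, adjusted p = 0.391, and 0.05, adjusted p = 0.936). Per 1000 DNA transposon reads it had 75.4 and 97.4 in shTrim28, 67.0 and 78.2 in the libraries labelled shWtx and 273 in shGFP. All 4 hairpin libraries were below the control on this scale, at −1.65 (SE 0.25, adjusted p = 0.0473) in shTrim28 and, in the libraries labelled shWtx, −1.91 (SE 0.24, adjusted p = 0.0102). The call in shTrim28 was lost without either library labelled shWtx (adjusted p = 0.28 and 0.288), and that in the libraries labelled shWtx was lost without either of its pair (adjusted p = 0.187 and 0.108), with folds of −1.66, and of −1.80 and −2.03.

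The internal regions differed among themselves. MMETn-int, the interior of ETn, had 83.7 and 110.1 reads per 1000 DNA transposon reads in shTrim28, 81.5 and 90.1 in the libraries labelled shWtx and 147 in shGFP, below the control in all 4 hairpin libraries without passing the test (−0.60, adjusted p = 0.278, and −0.78, adjusted p = 0.113). ETnERV2-int had 94.9 and 94.2 in shTrim28, 112.5 and 108.3 in the libraries labelled shWtx and 74.1 in shGFP. It was above the control in all 4, again without passing the test (0.35, adjusted p = 0.421, and 0.58, adjusted p = 0.152). ETnERV3-int, at 22.2 and 21.0 in shTrim28, 21.4 and 20.2 in the libraries labelled shWtx and 14.6 in shGFP, lay above the control as well. ETnERV-int ran from 10.2 to 12.1 over the 5 libraries. In CPM, ETnERV2-int and ETnERV3-int were called higher in shTrim28 (1.47 and 1.68), and the 4 internal regions in the libraries labelled shWtx (1.18 to 2.55), against 20.9% and 82.2% of all rows.

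**Figure D4:**
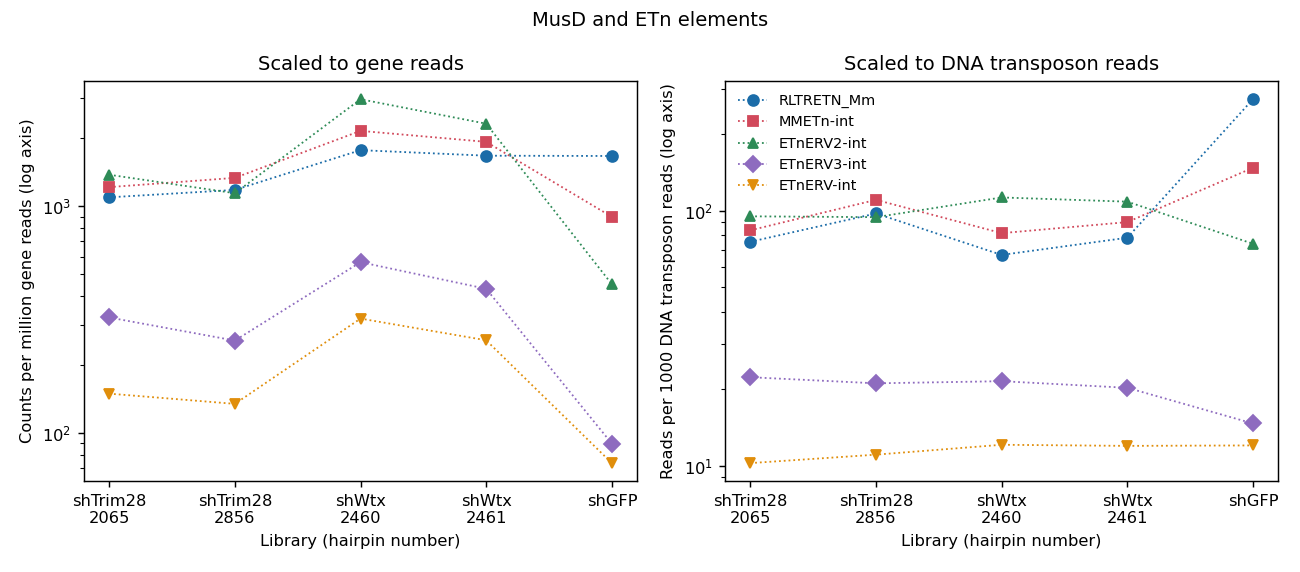
CPM of gene reads (left) and reads per 1000 DNA transposon reads (right), both on log axes, of the 5 MusD and ETn elements in each library; each point is 1 library and the dotted lines only join points of an element. RLTRETN_Mm stands at 273 reads per 1000 DNA transposon reads in shGFP and between 67.0 and 97.4 in the 4 hairpin libraries.

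Within libraries, RLTRETN_Mm had 0.795 (95% interval 0.681 to 0.927) and 1.03 (0.972 to 1.10) counts per count of ETnERV2-int in shTrim28, in the libraries labelled shWtx 0.596 (0.555 to 0.639) and 0.722 (0.650 to 0.802), and 3.68 (3.20 to 4.25) in shGFP. The control lay outside the counting intervals of the other 4 libraries. MMETn-int per count of ETnERV2-int gave 0.882 and 1.17 in shTrim28, 0.725 and 0.831 in the libraries labelled shWtx and 1.98 in shGFP, with the control highest again. Since the control is 1 library, no ratio has a spread between controls.

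**Figure D5:**
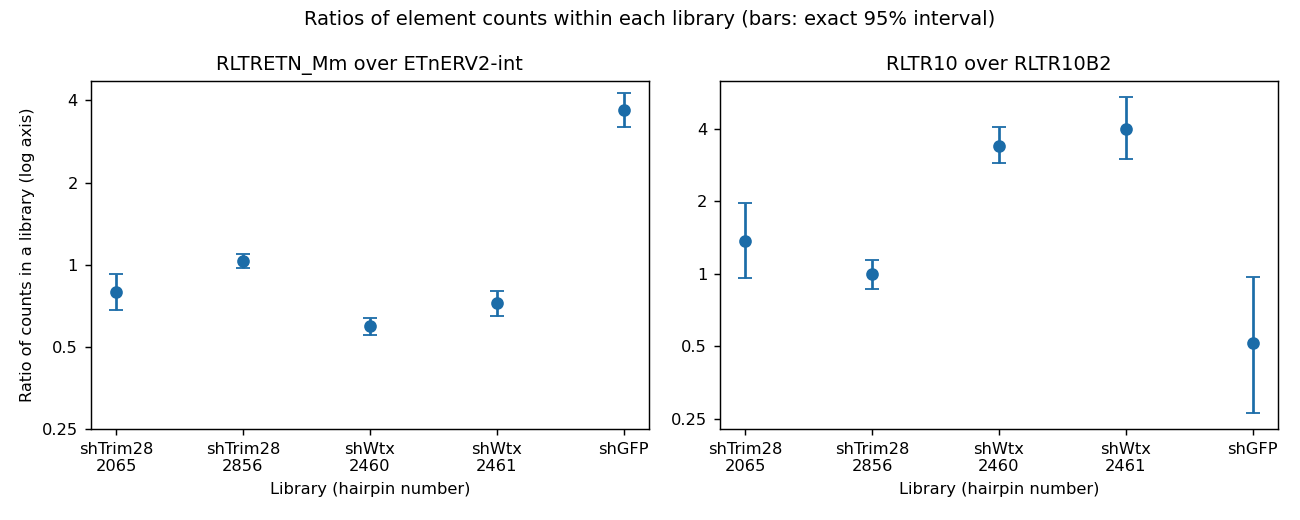
Ratio of the counts of 2 elements within each library (log axis), RLTRETN_Mm over ETnERV2-int on the left and RLTR10 over RLTR10B2 on the right; each point is 1 library and bars are exact 95% intervals for counting error only. The left ratio is 3.68 in shGFP and between 0.596 and 1.03 in the hairpin libraries; the right ratio is 3.41 and 4 in the libraries labelled shWtx and 0.516 in shGFP.

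RLTR13 is a family of LTRs, of which RLTR13D5 is known as an enhancer in mouse trophoblast stem cells. Its 15 elements summed to 125.8 and 127.4 reads per 1000 DNA transposon reads in shTrim28, 154.2 and 144.6 in the libraries labelled shWtx and 78.8 in shGFP. The groups did not overlap in this sum. The share of non-IAP ERVK reads was 4.19% and 4.81% in shTrim28, 5.06% and 4.50% in the libraries labelled shWtx and 2.48% in shGFP. Relative to gene reads, 10 of 15 were higher in shTrim28, against 20.9% of all rows, and 15 of 15 in the libraries labelled shWtx, against 82.2%, with medians of 1.82 and 3.01. The 5 not called in shTrim28 were RLTR13D1, RLTR13D2, RLTR13D4, RLTR13B2 and RLTR13B3, at 1.00 to 1.61. Relative to DNA transposon reads, edgeR called 0 in shTrim28, against 0.444% of all rows higher. At an unadjusted p under 0.05, 5 were higher there, beside 66 of 900 rows. It called 3 higher in the libraries labelled shWtx, against 4.67% of all rows, and DESeq2 called 0 in both comparisons. The medians were 0.79 and 1.05, beside 0.25 and 0.52 for the DNA transposon rows. Folds above 0 were found in 14 and 15 of 15, beside 466 and 540 of 900 rows. Between the targets, 13 of 15 were lower in shTrim28 relative to gene reads, against 66% of all rows, all but RLTR13D5 and RLTR13C1, and 0 relative to DNA transposon reads (edgeR and DESeq2; 0 at an unadjusted p under 0.05).

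RLTR13A3 had the highest fold over the control in shTrim28 of the 128 elements tested, on few counts. It was counted 16 and 105 times in shTrim28, 101 and 39 times in the libraries labelled shWtx and 3 times in shGFP. Per 1000 DNA transposon reads it stood at 3.995 and 4.85 in shTrim28, 5.28 and 5.02 in the libraries labelled shWtx and 0.879 in shGFP. The ratio to the control was 5.37 in shTrim28 (exact 95% counting interval 1.80 to 26.4, adjusted p = 0.0783 in edgeR) and 5.93 in the libraries labelled shWtx (1.99 to 29.1, adjusted p = 0.0224), so the intervals of the ratios span more than a factor of 10. Relative to gene reads the ratios were 10.9 (3.66 to 53.8, adjusted p = 0.00137) and 24.0 (8.04 to 118, adjusted p = 3.71e-07).

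RLTR13D3 had 8.99 and 8.60 reads per 1000 DNA transposon reads in shTrim28, 10.8 and 11.3 in the libraries labelled shWtx and 3.81 in shGFP, a pair of values above the control for each target. RLTR13B1 had 9.74 and 11.3 in shTrim28, 14.6 and 14.2 in the libraries labelled shWtx and 5.56 in shGFP. Both stood lowest in the control and highest in the libraries labelled shWtx, where both were called higher (1.54, adjusted p = 0.0317, and 1.37, adjusted p = 0.0417). RLTR13A had 3.50 and 7.21 in shTrim28, 7.53 and 9.01 in the libraries labelled shWtx and 2.05 in shGFP, and the shTrim28 hairpins stood further apart in it than in the others named. RLTR13D6, the most abundant of the family by counts, had 19.7 and 21.5 in shTrim28, 24.8 and 22.5 in the libraries labelled shWtx and 14.6 in shGFP. RLTR13D5 had 14.2 and 12.1 in shTrim28, 13.7 and 12.7 in the libraries labelled shWtx and 9.08 in shGFP, and neither was called on this scale.

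RLTR33, an LTR outside these groups, had 18.0 and 13.6 reads per 1000 DNA transposon reads in shTrim28, 18.5 and 17.8 in the libraries labelled shWtx and 4.69 in shGFP, the last from 16 counts. All 4 hairpin libraries were above the control, and the targets overlapped. The log2 fold change was 1.73 in shTrim28 (SE 0.35, adjusted p = 0.0792) and 1.95 in the libraries labelled shWtx (SE 0.35, adjusted p = 0.022), with −0.22 between the targets (SE 0.22, adjusted p = 0.649). In CPM it was 2.86 (SE 0.70, adjusted p = 0.00276) and 3.92 (SE 0.72, adjusted p = 2.46e-06). Of the 3 other elements called higher relative to DNA transposon reads in the libraries labelled shWtx, the LTR RMER13B had 20.5 and 22.4 in shTrim28, 38.3 and 31.1 in those libraries and 14.1 in shGFP. RMER19A had 26.0 and 26.4 in shTrim28, 35.0 and 35.1 in those libraries and 16.7 in shGFP, and MERVK26-int, an internal region, had 11.7 and 11.8 in shTrim28, 17.7 and 19.6 in those libraries and 8.20 in shGFP. All 3 stood in the order of RLTR10, with the libraries labelled shWtx highest.

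Of the elements called lower relative to DNA transposon reads in the libraries labelled shWtx, RLTR19-int had 61.7 and 55.9 reads per 1000 DNA transposon reads in shTrim28, 38.6 and 42.8 in those libraries and 104 in shGFP (−0.82, adjusted p = 0.141, in shTrim28 and −1.35, adjusted p = 0.017, in those libraries). RLTR20A1 had 3.25 and 1.99 in shTrim28, 1.88 and 2.96 in those libraries and 9.66 in shGFP, from 13 to 43 counts (−2.06, adjusted p = 0.0792, and −2.08, adjusted p = 0.0304). Both were below the control in all 4 hairpin libraries. In CPM neither was called, with folds from −0.93 to 0.61. RLTR19A, an LTR with a name like that of RLTR19-int, was counted 6 and 31 times in shTrim28, 30 and 9 times in those libraries and 2 times in shGFP, a ratio to shGFP of 2.46 in shTrim28 (exact 95% counting interval 0.636 to 21.1) and 2.48 in those libraries (0.641 to 21.2) relative to DNA transposon reads, where both intervals include 1. Relative to gene reads the ratios were 5.02 (1.30 to 43.0) and 10.0 (2.59 to 85.7).

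Of the 10 elements with the highest mean CPM, the 6 outside the named groups were not called relative to DNA transposon reads. RMER17C, an LTR and the first by mean CPM, had 132 and 119 reads per 1000 DNA transposon reads in shTrim28, 126 and 127 in the libraries labelled shWtx and 153 in shGFP (−0.29, adjusted p = 0.501, and −0.28, adjusted p = 0.419). RMER19B, the second, had 96.9 and 81.9 in shTrim28, 116 and 111 in the libraries labelled shWtx and 83.5 in shGFP (0.10, adjusted p = 0.848, and 0.45, adjusted p = 0.261). RMER6C, RMER6A, RMER17B and RMER12 ran from 48.9 to 120.1 over the 5 libraries. Relative to RMER17C within each library, RLTR10 stood at 0.146 and 0.159 in shTrim28, 0.249 and 0.235 in the libraries labelled shWtx and 0.0307 in shGFP, and MMERVK10C-int at 0.497 and 0.739 in shTrim28, 0.629 and 0.583 in the libraries labelled shWtx and 0.213 in shGFP. With this abundant LTR as the measure, picked after its values were seen, both elements were lowest in the control. Relative to DNA transposon reads RMER17C itself was highest there, so these ratios are not a separate line of support.

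Internal regions and LTRs were set side by side. The 25 internal regions took 25.5% and 27.7% of non-IAP ERVK reads in shTrim28, 26.4% and 24.9% in the libraries labelled shWtx and 20.5% in shGFP. Relative to DNA transposon reads their median log2 fold change was 0.52 in shTrim28 and 0.74 in the libraries labelled shWtx, against −0.01 and 0.16 for the 103 LTRs tested. The DNA transposon rows themselves had medians of 0.25 and 0.52, with folds above 0 in 86 and 100 of 133. The medians of the LTRs lay below these. Folds above 0 were found in 21 and 23 of 25 internal regions, and in 51 and 63 of 103 LTRs, beside 466 and 540 of 900 rows. Among the internal regions, edgeR called 0 in shTrim28, against 0.444% of all rows higher and 1.22% lower. At an unadjusted p under 0.05, 4 were higher and 1 lower there, beside 66 and 99 of all rows. DESeq2 called 2 higher and 0 lower, beside 18 and 23 of all rows. In the libraries labelled shWtx, edgeR called 3 higher and 1 lower, against 4.67% and 7% of all rows, and DESeq2 2 and 1. Of the 103 LTRs, edgeR called 1 higher and 1 lower in shTrim28 (DESeq2 2 and 2). In the libraries labelled shWtx it called 8 and 2 (DESeq2 3 and 3). The difference between both kinds of region was not tested.

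IAP, the part of the ERVK family left out here, summed to 418 and 662 reads per 1000 DNA transposon reads in shTrim28, 504 and 427 in the libraries labelled shWtx and 215 in shGFP. Its 16 elements had medians of 0.98 in shTrim28 and 1.18 in the libraries labelled shWtx on this scale, beside 0.88 and 0.59 for RLTR10 with MMERVK10C, 0.79 and 1.05 for RLTR13, and −0.01 and 0.17 for the 99 elements tested outside the named groups. The DNA transposon rows had medians of 0.25 and 0.52. Per 1000 DNA transposon reads, shTrim28.2856 was the highest library for IAP, for RLTR10 with MMERVK10C and for MMERVK10C-int, while in CPM shWtx.2460 was the highest for all 3.

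Of 42 genes listed for Trim28-dependent silencing, 41 were in the gene table and all 41 were tested. In shTrim28 their median log2 fold change was −0.19, beside 0.16 for all genes tested. At an unadjusted p under 0.05 (edgeR), 2 were higher and 9 lower. After adjustment 0 were higher, against 4.27% of all 10878 genes tested, and 5 were lower, against 2.26%. They were Trim28 (−3.88), the DNA methyltransferases Dnmt3a (−1.81) and Dnmt3b (−2.13), Rbbp4 (−0.91), a histone-binding subunit of several chromatin complexes, and Zfp57 (−1.46), the KRAB zinc finger protein of imprinted regions. Trim28 is the gene these hairpins target, so its call here and between the targets follows from the design and adds nothing to the count. In the libraries labelled shWtx the median was −0.47, beside 0.06 for all genes tested. At an unadjusted p under 0.05 (edgeR), 0 were higher and 12 lower. After adjustment 0 were higher, against 10.9%, and 6 were lower, against 4.94%. The 6 were Trim28 (−0.97), Dnmt3a (−0.99), Dnmt3b (−1.13), Rbbp4 (−0.84), the histone demethylase Kdm1a, listed as Kdm1 (−1.08), and the histone H3.3 gene H3f3a (−0.82). Between the targets, Yy1 was higher in shTrim28 (1.00; background 5.45%) and Trim28, Dnmt3a, Dnmt3b and Zfp57 were lower (background 9.83%). Setdb1, the methyltransferase that Trim28 recruits, had 39.9 and 47.7 CPM in shTrim28, 58.1 and 41.3 in the libraries labelled shWtx and 51.9 in shGFP, and Zfp809, a KRAB zinc finger protein that binds retroviruses in mouse embryonic cells, had 36.3 and 39.3 CPM in shTrim28, 33.2 and 30.3 in the libraries labelled shWtx and 25.1 in shGFP. Neither was called in any comparison. The gene calls were not refitted without a library or with DESeq2. Stem cell marker levels moved the same way as Dnmt3a and Dnmt3b, highest in shGFP and lowest in shTrim28, and their part in these changes was not tested.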

How the data were processed

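RNA of 5 libraries was read by Helicos single-molecule sequencing. The authors deposited 2 tables of estimated counts, with no scaling of libraries. Genes come from alignment to RefSeq and repeats from alignment to Repbase, per the labels, and the submitters' processing notes name mm9. Aligner, counting program and strand use were not given in the sources used here. Reads of near-identical elements may have been split or merged between rows. Groups follow the hairpin targets that the labels name, and elements were grouped by the deposited list of repeat families. The elements and gene lists were chosen with earlier results of these data known.

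Estimated counts were rounded. edgeR 4.0.16 in R 4.3.3 (filterByExpr, glmQLFit and glmQLFTest, two-sided) was fitted on all 900 repeat rows kept of 1221, scaled by effective library sizes (TMM) of the gene table or by the total of DNA transposon rows, and on 10878 of 28642 gene rows. The Benjamini-Hochberg adjustment ran over each whole table, with a threshold of 0.05. Every adjusted p comes from these fits or, where a library is named as left out, from the same fit without it. The single control adds no spread: 2 residual degrees of freedom come from the pairs of hairpins and the control is assumed to vary like them. Standard errors are the fold divided by the square root of F. The script was tested on simulated data. Elements named were those of the 3 groups, RLTR33, the 10 highest by mean CPM and, in each comparison and direction, the 8 with the largest called fold whose groups did not overlap; any others were chosen after their values were seen. With 1 to 3 control counts a ratio with its exact 95% counting interval replaces the fold. Alternatives were other scalings, no filter, DESeq2 1.42.0, only the 2 groups compared, and leaving out each library.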

Additional observations from a re-analysis of the deposited data

Results flagged for a closer look

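The 128 elements tested were searched on both scales for targets on opposite sides of the control. This was not counted over all 900 repeat rows, so the number found has no background beside it. For 5 elements both shTrim28 libraries lay on one side of the control and both libraries labelled shWtx on the other. The test of the difference between the targets passed for 1 of them, RLTR9E, relative to gene reads. It had 217.7 and 222.2 CPM in shTrim28, 540.5 and 509.4 in the libraries labelled shWtx and 256.1 in shGFP, with a log2 difference of −1.25 (edgeR adjusted p = 0.0232, against 66% of all rows called lower in this comparison). The call was lost without shTrim28.2856, shWtx.2460 or shWtx.2461 (adjusted p = 0.0882, 0.442 and 0.207). Relative to DNA transposon reads all 4 hairpin libraries were below the control for RLTR9E, at 15.0 and 18.3 in shTrim28, 20.5 and 23.8 in the libraries labelled shWtx and 41.9 per 1000 in shGFP, and the difference between the targets was −0.39 (adjusted p = 0.466).

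For the other elements the difference did not pass. RLTRETN_Mm, relative to gene reads, had 1096 and 1182 CPM in shTrim28, 1771 and 1674 in the libraries labelled shWtx and 1669 in shGFP, with a log2 difference of −0.60 between the targets (edgeR adjusted p = 0.187); the difference was 0.26 relative to DNA transposon reads. RMER17A2, per 1000 DNA transposon reads, had 35.2 and 29.2 in shTrim28, 43.5 and 38.9 in the libraries labelled shWtx and 37.5 in shGFP, with a difference of −0.36 (adjusted p = 0.466). RLTR13D2, on the same scale, had 6.24 and 5.83 in shTrim28, 7.53 and 7.59 in the libraries labelled shWtx and 6.44 in shGFP, with a difference of −0.34 (adjusted p = 0.478). RLTR43A, also on that scale, had 1.25 and 0.832 in shTrim28, 1.67 and 1.80 in the libraries labelled shWtx and 1.46 in shGFP, from 5 to 32 counts, with a difference of −0.91 (adjusted p = 0.256).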

How the results depend on the processing

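No paired analysis was possible because the libraries carry hairpin numbers that no 2 groups share. Leaving out 1 library and scaling to DNA transposon reads at once, DESeq2 on that scale and the ratios within libraries were chosen after seeing the data. Counts over all 900 repeat rows moved along with those of the elements. In shTrim28 against shGFP, 188 rows were higher relative to gene reads, 18 with TMM of the repeat rows and 84 with DESeq2 size factors. In the libraries labelled shWtx, 740 rows were higher, and 47 with TMM of the repeat rows. Elements called higher in shTrim28 than in shGFP were 42 relative to gene reads, and 1 with DNA transposon scaling, 2 with TMM of the repeat rows, 19 with DESeq2 size factors, 0 with only these groups fitted (35 at an unadjusted p under 0.05) and 0 to 78 without 1 library, the 0 without either library labelled shWtx (34 and 35 unadjusted) and the 78 without shTrim28.2856. Elements called lower there were 0, with 1 under DNA transposon scaling, 3 under repeat TMM and 0 to 1 without 1 library. In the libraries labelled shWtx, 120 were higher, with 11 under DNA transposon scaling, 10 under repeat TMM and 64 to 122 without 1 library; 0 were lower, with 3 and 10 under those scalings. Between the targets 87 were lower in shTrim28, and 0 with either repeat-based scaling and 0 to 118 without 1 library, the 0 without shTrim28.2856, shWtx.2460 or shWtx.2461 (53, 8 and 35 unadjusted). Relative to DNA transposon reads, leaving out 1 library gave 0 to 12 higher and 0 to 15 lower in shTrim28 (1 and 1 with all), in the libraries labelled shWtx 0 to 30 and 0 to 9 (11 and 3 with all) and 0 to 3 and 0 to 1 between the targets; each 0 of the comparisons with shGFP came without shWtx.2460 or shWtx.2461. On that scale DESeq2 called 4 higher with 2 lower in shTrim28, beside 18 and 23 of all rows. For the libraries labelled shWtx it called 5 higher with 4 lower, beside 32 and 60 of all rows.

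Under DNA transposon scaling the elements as a whole shifted down: folds above 0 went to 72 of 128 in shTrim28, with 122 relative to gene reads, and to 86 in the libraries labelled shWtx, with 127. RLTR13D2, RMER6C, RMER12 and RLTR19-int were among those that turned in shTrim28. Of the elements recomputed under all alternatives, signs turned under DNA transposon scaling and repeat TMM for RLTR10A (−0.08, −0.05), MMETn-int (−0.60, −0.60), ETnERV-int (−0.17, −0.16) and RMER17C (−0.29, −0.31) in shTrim28; for RLTR10B2 (−0.11, −0.29), RLTR10B (−0.67, −0.85), RLTRETN_Mm (−1.91, −2.10), MMETn-int (−0.78, −0.96) and RMER17C (−0.28, −0.46) in the libraries labelled shWtx; and for RLTRETN_Mm between the targets (0.26, 0.44). Repeat TMM alone turned RLTR10C (−0.12) and ETnERV-int (−0.18) in the libraries labelled shWtx. Without 1 library, signs turned for RLTR10B2 (−0.16 to −0.01 without shWtx.2461 or shTrim28.2856) and RLTR10B (−0.22 without shTrim28.2856, up to 0.49 without shTrim28.2065) between the targets and, relative to DNA transposon reads, for RLTR10C (−0.05) and RLTR10B2 (0.02) in the libraries labelled shWtx and RLTR10B (−0.15) and RLTR10A (0.10) in shTrim28. The causes were not tested. A group left with 1 library was assumed to vary like the other pair. RLTR10 kept its sign under all alternatives run. The main limits are the single control library, control counts as low as 16 for RLTR10 and 3 for RLTR13A3, and a spread taken from 2 pairs of hairpins.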

Other observations

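Groups of elements that share the start of a name were also described after their values were seen, so they carry no test. All 8 LTRs whose names begin with RLTR20 had log2 fold changes below 0 in shTrim28 relative to DNA transposon reads, beside 434 of 900 rows. The median of the 8 was −0.87. Of them, 0 were called (edgeR and DESeq2), and 4 were lower at an unadjusted p under 0.05 (edgeR), beside 99 of 900 rows. In the libraries labelled shWtx, 7 of 8 were below 0 on that scale, beside 360 of 900 rows. The median of the 8 was −0.67, and 1 was called lower, against 7% of all rows. Relative to gene reads the median was 0.30 in shTrim28 and 1.28 in the libraries labelled shWtx, where 7 of 8 were called higher, against 82.2% of all rows. The 27 tested elements whose names begin with RMER had medians of 0.10 in shTrim28 and 0.45 in the libraries labelled shWtx relative to DNA transposon reads. On that scale edgeR called 0 and 2 of them higher, against 0.444% and 4.67% of all rows, and DESeq2 0 and 1. At an unadjusted p under 0.05 in edgeR, 4 and 10 were higher, beside 66 and 132 of 900 rows.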
